A study of Mus musculus with 24 samples.

Results

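Ier2, Ier3, Ier5, Btg1, Btg2, Csrnp1, Plk2 and Plk3 are immediate early genes, transcribed within minutes of a stimulus from factors that are already in the cell. They were chosen by gene symbol, all 8 were found among the 24273 genes of the normalised expression table, and all 8 were among the 13901 genes that passed the filter on low values. RNA-seq was carried out on mouse bone marrow-derived macrophages (BMDMs) from C57BL/6 mice, cultured in L-cell conditioned medium and left unstimulated (0 h) or stimulated with LPS at 100 ng/ml for 0.5, 1 or 2 h. LysM-Cre libraries were the controls and FosKO libraries came from LysM-Cre Fos fl/fl cells, with 3 libraries for each of the 8 combinations of genotype and time, 24 in all. Both genotypes therefore carried the Cre recombinase, which is inserted at Lyz2 and acts in myeloid cells, and the study's text describes the controls also as carrying 1 floxed Fos allele. The study's methods call the libraries biological replicates, but neither they nor the labels say whether libraries of a group came from separate mice, so the p-values measure the spread between these libraries, which may be technical.

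LPS binds Toll-like receptor 4 on macrophages and switches on the NF-kB and MAP kinase pathways, and through them the immediate early genes. Fos, one of these genes, encodes a subunit of the AP-1 transcription factor. Ier2 and Ier5 encode related nuclear proteins, whereas Ier3 encodes an unrelated protein linked to survival and ERK signalling. Btg1 and Btg2 encode antiproliferative proteins that bind the CCR4-NOT deadenylase, Csrnp1 encodes a cysteine- and serine-rich nuclear protein, and Plk2 and Plk3 encode stress-responsive polo-like kinases. Several of these genes, among them Btg2, Ier3, Plk2 and Plk3, are also known targets of p53.

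Promoter stretches of 4 of the genes are shown because each holds a match to the binding motif of a signal-responsive factor. RefSeq windows (GRCm38.p6) reach from 250 bases before to 50 after a transcription start, and 7 of the 8 genes had 1 or more, with Ier2 without one. The windows were searched on both strands for the CRE (TGACGTCA), the AP-1 site (TGACTCA), the EGR site (GCGGGGGCG), the TATA box (TATAAA), and, by name, the CArG box, the NF-kB site and the p53 half-site. The capitals mark the CRE in Btg2 (chr1:134079156-134079331, minus strand) and in Plk2 (chr13:110394944-110395043, plus strand), the NF-kB site in Ier3 (chr17:35821604-35821683, plus strand), and the 2 AP-1 sites upstream of an internal start of Csrnp1 (chr9:119983024-119983135, minus strand), which lie in an intron of its longer transcripts.
Btg2: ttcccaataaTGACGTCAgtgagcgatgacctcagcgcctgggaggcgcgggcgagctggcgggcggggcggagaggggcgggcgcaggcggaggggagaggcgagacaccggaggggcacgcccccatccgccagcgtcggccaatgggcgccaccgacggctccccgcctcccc
Plk2: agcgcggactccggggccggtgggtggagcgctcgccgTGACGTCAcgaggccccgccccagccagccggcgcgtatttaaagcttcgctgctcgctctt
Ier3: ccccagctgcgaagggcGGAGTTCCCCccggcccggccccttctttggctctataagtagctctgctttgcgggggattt
Csrnp1: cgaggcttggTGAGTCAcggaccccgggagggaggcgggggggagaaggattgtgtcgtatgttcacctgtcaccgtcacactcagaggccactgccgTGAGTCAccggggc
Of all 32851 windows, 1.79% held a CRE, 5.20% an AP-1 site and 4.51% an NF-kB site. A p53 half-site, present in 8.36% of windows, was found in the Ier5 window, and a TATA box, present in 13.6%, in the Btg1 window. No CArG box (1.63% of windows) or EGR site (2.91%) was found in these windows, and the Plk3 window held none of the 7 motifs. Csrnp1 had 4 windows, so it was searched over more sequence than the other genes. These matches describe the letters of the windows and are not evidence of binding.

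The genes lie on 7 chromosomes of GRCm38 and all are annotated as protein coding. Ier2 (ENSMUSG00000053560) is at chr8:84661331-84662852, Ier3 (ENSMUSG00000003541) at chr17:35821684-35822923 and Ier5 (ENSMUSG00000056708) at chr1:155096361-155099636. Btg1 (ENSMUSG00000036478) is at chr10:96617006-96622809 and Btg2 (ENSMUSG00000020423) at chr1:134075170-134079120. Csrnp1 (ENSMUSG00000032515) is at chr9:119971163-119984658, Plk2 (ENSMUSG00000021701) at chr13:110395046-110400844 and Plk3 (ENSMUSG00000028680) at chr4:117128655-117133963. Csrnp1 lies in an intron of a transcript of Cx3cr1 annotated on the same strand, which strand cannot separate, and overlaps an antisense gene on the opposite strand, and the 3′ end of Plk3 overlaps Tctex1d4 on the opposite strand. The libraries were described as strand-specific.

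Values are the normalised log2 values deposited by the authors, so a difference of 1 is a doubling on that scale, and no read counts or depths are known for single libraries. Fos, the targeted gene, was higher and not lower under the FosKO label at all times but one. Its log2 value exceeded that of LysM-Cre libraries by 1.49 in unstimulated FosKO-labelled cells, by 1.64 after 1 h and by 3.29 after 2 h of LPS. It was lower after 0.5 h alone (-0.77). Its response to LPS differed with the label: Fos rose by 2.41 at 0.5 h in LysM-Cre libraries (adjusted p = 1.61e-14), whereas in FosKO-labelled libraries its changes of 0.15, 0.18 and 0.20 after 0.5, 1 and 2 h did not pass the test, and the responses differed by -2.26 at 0.5 h (adjusted p = 1.38e-09). The expression table does not separate an intact from a recombined Fos transcript, and every direction below is given by the labels. Fosl1, another Fos family gene, was lower under the FosKO label at each of the 4 times (-0.90, -1.12, -1.64 and -0.85). In FosKO-labelled libraries Lyz2, the locus that carries the Cre, exceeded its LysM-Cre level by 4.89 to 5.17 over the 4 times. The study's text does not say whether both genotypes had the same number of Cre copies. A difference at the Cre locus would run along with the Fos genotype at all 4 times, so their effects cannot be told apart. The 18S RNA gene was at 16.65 to 16.998 in 5 libraries (LysM-Cre at 0.5 h replicate 3 and at 1 h replicates 2 and 3, FosKO at 0.5 h and 1 h replicate 1) and at 18.6 to 19.4 in the other 19. The macrophage markers Csf1r and Adgre1 had median values of 15.1 and 14.8. Ly6g and Elane (neutrophils), Cd3d (T cells) and Hba-a2 (erythroid cells) lay near the lowest value of the table (-2.22). Other neutrophil markers were above it, with S100a8 at 4.09 to 5.41, S100a9 at 3.85 to 5.82, Ngp at 3.46 to 5.49 and Ltf at 3.05 to 4.75, and of these 4 tested markers 4, 3, 4 and 4 were lower with the FosKO label in order of time. Of 10 macrophage markers, 5, 5, 5 and 6 were higher with the FosKO label in order of time and 4, 1, 2 and 0 lower. Of all genes, 35.4%, 40.9%, 33.9% and 44.6% were called in either direction. Lyz2, one of these markers, had group means of 10.9 to 11.3 in LysM-Cre and 16.1 to 16.3 in FosKO-labelled libraries. A sum without Lyz2 was not made. The summed level of the 10 macrophage markers, Lyz2 included, was 17.3 to 17.6 in LysM-Cre and 17.8 to 18.2 in FosKO-labelled libraries. That of 9 neutrophil markers was 6.33 to 7.43 and 5.80 to 6.48. For 8 T and NK cell markers the sum, nearly all of it from Cd4 (7.57 to 8.44), was 7.74 to 8.11 and 8.12 to 8.52. The sums of the dendritic, B cell, mast cell and stromal lists overlapped between the genotypes. Cd79b, the 1 B cell marker tested, was lower with the FosKO label at 0.5, 1 and 2 h (-0.38, -0.29 and -0.26). Among 4 dendritic markers tested, 1 was higher at 1 h and 1 lower at 2 h, and among 4 stromal markers 1 was lower at 2 h. The part of these shifts in the results below was not tested.

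LPS raised all 8 genes in both genotypes at 0.5 h and at 1 h, and most had returned towards their starting level by 2 h. Each of the 16 gene and genotype combinations passed the test at both times (limma, Benjamini-Hochberg adjusted p under 0.05). Of all genes tested, 5.09% were higher at 0.5 h and 19.2% at 1 h in LysM-Cre libraries, and 4.45% and 17.6% in FosKO-labelled libraries. Ier2, Ier3, Ier5, Btg2 and Plk2 had their highest mean at 0.5 h, and Btg1, Csrnp1 and Plk3 at 1 h, in both genotypes. In bulk RNA, fewer cells that express a gene and less RNA per cell cannot be told apart.

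**Figure D1:**
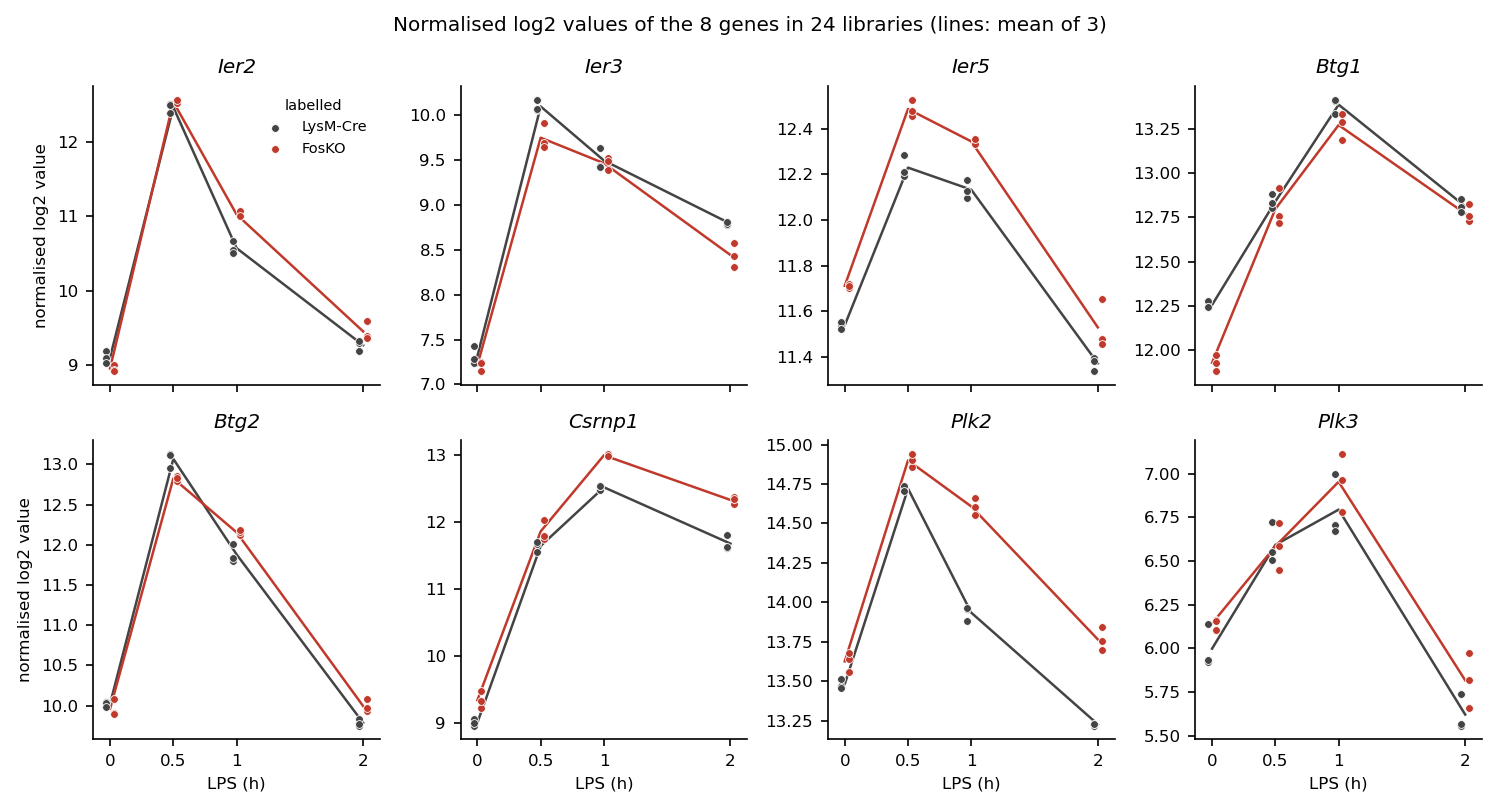
Normalised log2 value (vertical axis, a separate range for each gene) of the 8 genes against hours of LPS (horizontal axis), with 1 point per library, black for LysM-Cre and red for FosKO, and lines through the means of 3. All 8 genes rise after LPS, and the red points of Plk2 and Csrnp1 lie above the black points at all 4 times.

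Ier2 and Btg2 had their highest values at 0.5 h and had lost most of the rise by 2 h. In LysM-Cre libraries Ier2 rose by 3.37 ± 0.06 (log2 difference ± SE, n = 3 against 3, limma adjusted p = 2.45e-20) at 0.5 h, a 10.3-fold change, and stood only 0.16 above 0 h at 2 h (adjusted p = 0.0153). That remainder did not pass the test without LysM-Cre 0 h replicate 3 (0.13, adjusted p = 0.0884), LysM-Cre 2 h replicate 1 (0.15, adjusted p = 0.0513) or LysM-Cre 2 h replicate 2 (0.14, adjusted p = 0.0694), and its adjusted p ran from 0.00358 to 0.0884 over 34 alternatives. Btg2 rose 8.25-fold at 0.5 h in LysM-Cre libraries (3.04 ± 0.06, adjusted p = 1.53e-19) and was below its 0 h level at 2 h (-0.24 ± 0.06, adjusted p = 0.00131). In FosKO-labelled libraries Ier2 was still 0.50 above its 0 h level at 2 h (adjusted p = 1.16e-07), and the 2 h level of Btg2 differed from the 0 h level by 0.034 (95% confidence interval -0.09 to 0.15).

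Csrnp1 showed the largest change at 1 h and stayed high. It rose 6.21-fold at 0.5 h, 11.4-fold at 1 h (3.51 ± 0.07, adjusted p = 9.46e-20) and 6.36-fold at 2 h in LysM-Cre libraries. In FosKO-labelled libraries the corresponding changes were 5.73-fold, 12.6-fold and 7.93-fold. Ier3 rose 6.86-fold at 0.5 h in LysM-Cre libraries and was still 2.78-fold above 0 h at 2 h.

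LPS changed Ier5, Btg1, Plk2 and Plk3 by smaller amounts. The largest LPS changes in LysM-Cre libraries were 2.36-fold for Plk2 and 1.61-fold for Ier5 at 0.5 h, and 2.19-fold for Btg1 and 1.74-fold for Plk3 at 1 h. At 2 h, Ier5 (-0.17), Plk2 (-0.25) and Plk3 (-0.38) were below their 0 h level in LysM-Cre libraries, with Btg2 the fourth gene to fall, and the other 4 genes were above it. Quantile normalisation kept these directions and gave -0.39 for Ier5, -0.62 for Plk2 and 0.27 in place of 0.56 for Btg1, and in FosKO-labelled libraries it moved Ier5 from -0.18 to -0.45 and Btg1 from 0.84 to 0.50 at 2 h. All 8 thus passed the test at 2 h in LysM-Cre libraries, where 60.8% of all genes tested were called in either direction. In FosKO-labelled libraries 7 passed, 5 of them higher and Ier5 and Plk3 lower, beside 62.1% of all genes. The smaller changes of Plk3 in FosKO-labelled libraries were not stable: without FosKO 0.5 h replicate 3 the 0.5 h change was 0.37 (adjusted p = 0.0965), and without FosKO 2 h replicate 2 the 2 h change was -0.25 (adjusted p = 0.0766). With every library kept, the 0.5 h change did not pass in a fit of only the groups compared (0.44, adjusted p = 0.0766), nor the 2 h change under quantile normalisation (-0.21, adjusted p = 0.112). Over 34 alternatives the adjusted p ran from 0.00702 to 0.0965 for the first and from 0.00563 to 0.112 for the second.

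Per kilobase of exon in the GENCODE annotation, Plk2 had the highest and Plk3 the lowest mean level of the 8 genes in all 8 groups. At 0 h in LysM-Cre libraries the levels per kilobase (log2) ran from Plk2 (11.3) through Btg1 (9.86), Ier5 (9.83), Btg2 (8.57), Ier2 (8.50), Csrnp1 (7.21) and Ier3 (7.14) to Plk3 (4.66). The gaps between Btg2 and Ier2 and between Csrnp1 and Ier3 (0.071 both) were below the larger SD of the pair over 3 libraries (0.0849 and 0.103), so their order is not resolved, and the other gaps at 0 h were larger than that SD. At 0.5 h Ier2 (11.9) and Btg2 (11.6) had moved to the places behind Plk2 (12.6). The study's methods name RefSeq genes for the counting of reads, whereas the deposited values carry Ensembl identifiers. The exon lengths used in the counting are thus not known, and the order under other lengths was not tested.

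The genotype comparison asked how the 8 genes differ with the FosKO label before and after LPS. Plk2 and Csrnp1 were higher in the libraries labelled FosKO at all 4 times, with the largest differences at 1 h for Plk2 (1.59-fold) and at 2 h for Csrnp1 (1.57-fold). Ier5 was also higher at all 4 times, by 1.12-fold to 1.19-fold. Ier3 was lower at 0.5 h and 2 h, Btg1 was lower at 0 h, and Ier2 and Btg2 were higher at 1 h and 2 h but lower at an earlier time, Ier2 at 0 h and Btg2 at 0.5 h. Plk3 did not pass the test at any time.

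Of the 8 genes, 5 passed the test in unstimulated cells, 3 of them higher and 2 lower, beside 35.4% of all genes called in either direction. After 0.5 h of LPS 5 passed as well, again 3 higher and 2 lower, beside 40.9% of all genes. The 5 genes that passed after 1 h were all higher (33.9% of all genes called), and of the 6 that passed after 2 h 5 were higher and 1 lower (44.6%). The median log2 difference of the 8 genes was 0.041, 0.032, 0.24 and 0.19 at the 4 times, and that of all genes was at most 0.0040 in size. Quantile normalisation moved the counts to 2 higher with 2 lower in unstimulated cells, and to 2 with 3, 5 with 1, and 4 with 2 in order of LPS time. Overlap between the genotypes is described below for the 8 genes only. The share of all genes without overlap was not counted, so a lack of overlap among 3 libraries a group is a description and not a test.

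**Figure D2:**
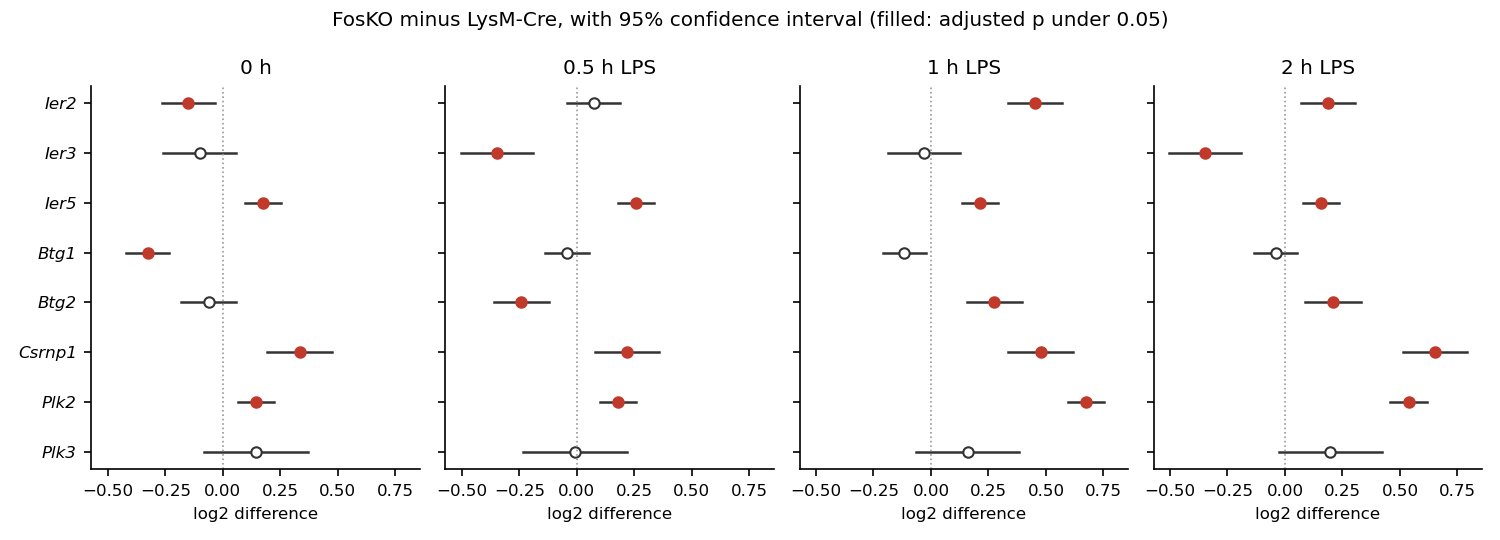
Log2 difference FosKO minus LysM-Cre (horizontal axis) of each gene at 0, 0.5, 1 and 2 h, with bars for the 95% confidence interval and filled points where the adjusted p was under 0.05 (limma, 3 libraries a group). The Plk2 and Csrnp1 intervals lie to the right of 0 in all 4 panels, and the Plk3 interval includes 0 in all 4.

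Plk2 encodes a kinase with roles in centriole duplication and stress responses. Its log2 values in LysM-Cre libraries were 13.47, 13.52 and 13.46 before LPS, 14.72, 14.73 and 14.71 after 0.5 h, 13.96, 13.88 and 13.97 by 1 h and 13.22, 13.23 and 13.23 by 2 h. In FosKO-labelled libraries they were 13.56, 13.64 and 13.68, then 14.86, 14.90 and 14.94, then 14.56, 14.66 and 14.60, and finally 13.70, 13.75 and 13.85. Every FosKO-labelled value lay above every LysM-Cre value of the same time, narrowly at 0 h and widely at 1 h and 2 h. The differences were 0.14 ± 0.04 at 0 h (adjusted p = 0.00505), 0.18 ± 0.04 at 0.5 h (adjusted p = 6.76e-04), 0.67 ± 0.04 at 1 h (adjusted p = 3.73e-11) and 0.54 ± 0.04 at 2 h (adjusted p = 6.85e-10). The 1 h difference was 0.68 among libraries of high 18S level (1 LysM-Cre, 2 FosKO) and 0.63 among those of low level (2 and 1). Under quantile normalisation the differences at 0 h (0.076, adjusted p = 0.137) and 0.5 h (0.073, adjusted p = 0.145) did not pass the test, and over all 34 alternatives the adjusted p ranged between 0.00147 and 0.137 for the first and between 2.82e-04 and 0.145 for the second.

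Csrnp1 encodes a nuclear protein reported to activate transcription. In LysM-Cre libraries its log2 values were 9.05, 8.96 and 9.004 before LPS, 11.54, 11.67 and 11.70 after 0.5 h, 12.48, 12.53 and 12.54 by 1 h and 11.61, 11.62 and 11.80 by 2 h. The FosKO-labelled libraries had 9.22, 9.32 and 9.47, then 11.75, 11.79 and 12.03, then 12.98, 13.01 and 12.99, and at 2 h 12.37, 12.26 and 12.34. The groups did not overlap at any time, and the gap was widest at 2 h. The differences were 0.33 ± 0.07 at 0 h (adjusted p = 5.32e-04), 0.22 ± 0.07 at 0.5 h (adjusted p = 0.0133), 0.48 ± 0.07 at 1 h (adjusted p = 1.14e-05) and 0.65 ± 0.07 at 2 h (adjusted p = 1.34e-07). The 0.5 h difference was not called without LysM-Cre replicate 1 (0.17, adjusted p = 0.0770), without FosKO replicate 3 (0.13, adjusted p = 0.119) or in a fit of those 6 libraries alone, with adjusted p from 0.00319 to 0.119 over 34 alternatives. It was 0.30 among libraries of high 18S level (2 a group) and 0.046 among those of low level (1 a group), and the 1 h difference was 0.52 and 0.44.

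Ier2 crossed from lower to higher. Its log2 values in LysM-Cre libraries were 9.19, 9.09 and 9.02 before LPS, 12.40, 12.51 and 12.50 after 0.5 h, 10.55, 10.50 and 10.66 by 1 h and 9.29, 9.32 and 9.18 by 2 h. The FosKO-labelled libraries had 9.0002, 8.94 and 8.92, then 12.53, 12.52 and 12.57, then 11.00, 11.07 and 11.01, and at 2 h 9.40, 9.36 and 9.59. The groups did not overlap at any time, with the FosKO-labelled values below the others at 0 h and above them after LPS. The difference at 1 h was 0.45 ± 0.06 (1.37-fold, adjusted p = 2.26e-06), with 0.49 among libraries of high and 0.42 among those of low 18S level. The difference at 0.5 h was 0.072 (95% confidence interval -0.04 to 0.19, adjusted p = 0.333). The 0 h difference of -0.15 (adjusted p = 0.0430) was lost in 9 of 34 alternatives, whose adjusted p ran from 0.0174 to 0.209, among them leaving out LysM-Cre 0 h replicate 1 (-0.10) or replicate 2 (-0.16), or FosKO 0 h replicate 2 (-0.14) or replicate 3 (-0.13). At 2 h the difference of 0.19 (adjusted p = 0.0101) was lost without LysM-Cre 2 h replicate 3 (0.15, adjusted p = 0.0638) and without FosKO 2 h replicate 3 (0.11, adjusted p = 0.0907), within a range of 0.00262 to 0.0907.

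Btg2 was lower at 0.5 h and higher at 1 h and 2 h. Its log2 values in LysM-Cre libraries were 10.05, 10.03 and 9.98 before LPS, 12.96, 13.13 and 13.11 after 0.5 h, 11.79, 11.83 and 12.02 by 1 h and 9.75, 9.83 and 9.77 by 2 h. In FosKO-labelled libraries they were 10.09, 9.91 and 9.89, then 12.85, 12.79 and 12.83, then 12.12, 12.16 and 12.18, and at 2 h 9.93, 9.97 and 10.08. The FosKO-labelled values overlapped the others at 0 h, lay below them at 0.5 h and above them at 1 h and 2 h. The differences were -0.061 ± 0.057 (adjusted p = 0.451), -0.24 ± 0.06 (adjusted p = 0.00186), 0.27 ± 0.06 (adjusted p = 8.01e-04) and 0.21 ± 0.06 (adjusted p = 0.00548). The 3 calls held in each of the 34 alternatives. The 0.5 h difference was -0.23 and the 1 h difference 0.38 among libraries of high 18S level, against -0.27 and 0.20 among those of low level.

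Btg1, the other antiproliferative gene, passed the test before LPS alone. At 0 h its log2 values were 12.28, 12.24 and 12.24 in LysM-Cre and 11.93, 11.88 and 11.98 in FosKO-labelled libraries, with no overlap and a difference of -0.33 ± 0.05 (0.798-fold, adjusted p = 9.52e-06). After LPS the LysM-Cre values were 12.80, 12.88 and 12.83, then 13.34, 13.41 and 13.42, then 12.81, 12.85 and 12.78, and the FosKO-labelled values were 12.76, 12.72 and 12.92, then 13.19, 13.29 and 13.34, then 12.73, 12.76 and 12.83. The groups overlapped at 0.5 h and 2 h, whereas at 1 h the FosKO-labelled values were just below the others. The difference was -0.043 at 0.5 h (adjusted p = 0.497), -0.12 at 1 h (adjusted p = 0.0549) and -0.041 at 2 h (adjusted p = 0.506). At 1 h the gene passed the test in 8 of 34 alternatives (adjusted p from 7.57e-04 to 0.851), among them without LysM-Cre 1 h replicate 1 (-0.14), FosKO 1 h replicate 3 (-0.15), or FosKO 0.5 h replicate 2 or replicate 3 (-0.12 both). The difference was -0.023 among libraries of high and -0.22 among those of low 18S level. Under quantile normalisation Btg1 was lower at all 4 times, with -0.16, -0.18 and -0.19 after 0.5, 1 and 2 h of LPS.

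The FosKO-labelled libraries had less Ier3 at 0.5 h and 2 h. At 0.5 h its log2 values were 10.05, 10.06 and 10.17 in LysM-Cre and 9.68, 9.64 and 9.91 in FosKO-labelled libraries, and at 2 h 8.77, 8.79 and 8.81 against 8.31, 8.43 and 8.58. The groups did not overlap at these times, and the FosKO-labelled libraries were the more spread. The difference was -0.35 ± 0.08 at both times (0.786-fold, adjusted p = 8.88e-04 at 0.5 h and 0.785-fold, adjusted p = 7.61e-04 at 2 h). At 0 h the values were 7.24, 7.28 and 7.43 against 7.15, 7.25 and 7.24, and at 1 h 9.43, 9.42 and 9.63 against 9.38, 9.52 and 9.49. Both pairs of groups overlapped, with differences of -0.10 (95% confidence interval -0.26 to 0.06) and -0.030 (-0.19 to 0.13). The 0.5 h difference was -0.28 among libraries of high and -0.49 among those of low 18S level, and the 1 h difference was 0.076 and -0.14.

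Ier5 was higher in the FosKO-labelled libraries at each time. Its log2 values at 0 h were 11.54, 11.55 and 11.52 in LysM-Cre and 11.70, 11.72 and 11.71 in FosKO-labelled libraries, and at 0.5 h 12.19, 12.21 and 12.28 against 12.45, 12.48 and 12.53. At 1 h they were 12.10, 12.13 and 12.17 against 12.34, 12.33 and 12.35, and at 2 h 11.39, 11.38 and 11.34 against 11.48, 11.46 and 11.65. No group overlapped the other genotype at its time. The differences were 0.17, 0.26, 0.21 and 0.16 in order of time (SE 0.038 each, adjusted p = 0.00111, 1.33e-05, 1.59e-04 and 0.00178). Quantile normalisation gave 0.10, 0.17, 0.14 and 0.034, the last with adjusted p = 0.465 in a range of 3.14e-04 to 0.465, and without FosKO 2 h replicate 3 the 2 h difference was 0.096. The difference was 0.30 at 0.5 h and 0.25 at 1 h among libraries of high 18S level, and 0.17 and 0.19 among those of low level.

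Plk3, the least abundant of the 8, ranged from 5.56 to 7.00 in LysM-Cre and from 5.66 to 7.11 in FosKO-labelled libraries. The groups overlapped at all 4 times, and the differences were 0.14, -0.0078, 0.16 and 0.20 with 95% confidence intervals of -0.08 to 0.37, -0.23 to 0.22, -0.07 to 0.38 and -0.03 to 0.42. The interval at each time includes 0 and, except at 0.5 h, a difference as large as that of Csrnp1 at 0 h. Its SE of 0.108 was the largest of the 8 genes.

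The LPS response itself was compared between the genotypes, as the LPS change in FosKO-labelled libraries minus that in LysM-Cre libraries. At 0.5 h 0 of the 8 genes passed the test, beside 0.115% of all genes, and 4 had an unadjusted p under 0.05, beside 6.51% of all genes. At 1 h Ier2, Btg2 and Plk2 had a larger change in FosKO-labelled libraries, beside 1.22% of all genes called in either direction. At 2 h this held for Ier2, Btg1, Btg2, Csrnp1 and Plk2, beside 15.0% of all genes. The times share their 0 h libraries, so these comparisons are not independent of each other.

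**Figure D3:**
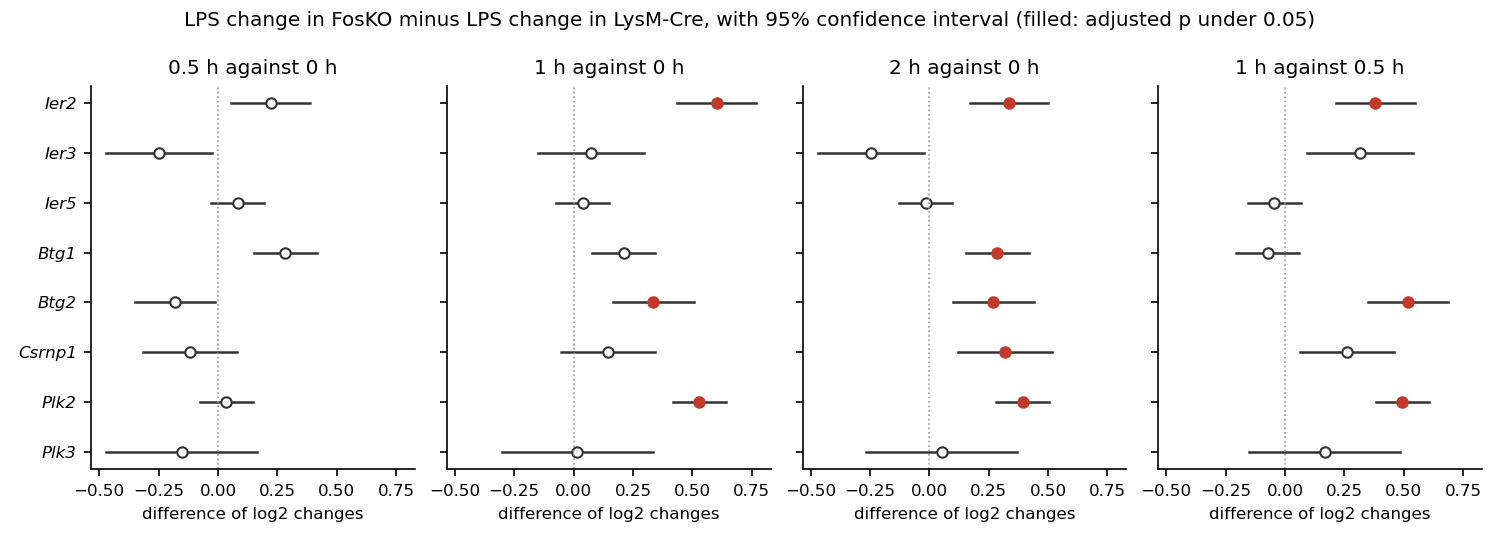
Difference between genotypes in the log2 change (FosKO minus LysM-Cre, horizontal axis) for each gene, from 0 h to 0.5, 1 and 2 h and from 0.5 h to 1 h, with bars for the 95% confidence interval and filled points where the adjusted p was under 0.05. Ier2 and Plk2 are filled to the right of 0 from 1 h on, and no point is filled at 0.5 h.

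Plk2 rose by 0.45 at 1 h in LysM-Cre and by 0.98 in FosKO-labelled libraries, a difference of 0.53 ± 0.05 (adjusted p = 3.52e-06), and at 2 h it was 0.25 below its 0 h level in the former and 0.14 above it in the latter (difference 0.39 ± 0.05, adjusted p = 2.99e-05). Under quantile normalisation the rise of 0.45 became 0.27 and that of 0.14 turned into -0.32, whereas both differences between genotypes kept their call in all 34 alternatives. Ier2 rose by 1.47 at 1 h in LysM-Cre and by 2.07 in FosKO-labelled libraries, a difference of 0.60 ± 0.08 (adjusted p = 1.16e-04), and by 0.16 and 0.50 at 2 h (difference 0.34 ± 0.08, adjusted p = 0.00594). These were also called in all 34 alternatives. The level of Ier2 itself differed between the genotypes by -0.15 at 0 h, a difference lost in 9 of 34 alternatives, and by 0.19 at 2 h. Btg1 rose by 0.56 at 2 h in LysM-Cre and by 0.84 in FosKO-labelled libraries, a difference of 0.29 ± 0.06 (adjusted p = 0.00387), and its 0.5 h and 1 h differences of 0.28 (adjusted p = 0.155) and 0.21 (adjusted p = 0.163) did not pass the test. The level of Btg1 itself differed by -0.33 at 0 h and by -0.041 at 2 h (limma adjusted p = 0.506 at 2 h). Its larger change thus started from a lower 0 h level and did not lead to a higher 2 h level.

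The differences of Btg2 and Csrnp1 were less stable. For Btg2 the 1 h difference was 0.34 ± 0.08 (adjusted p = 0.0448), passed in 11 of 34 alternatives (adjusted p 0.00630 to 0.147) and in 5 of the 24 fits that left out 1 library, those without LysM-Cre 0.5 h replicate 1 or 2 (0.34 both), LysM-Cre 1 h replicate 3 (0.40), FosKO 0 h replicate 1 (0.40) or FosKO 2 h replicate 3 (0.34). Its 2 h difference of 0.27 ± 0.08 (adjusted p = 0.0284, range 0.00589 to 0.0785) was lost when LysM-Cre 0 h replicate 1 (0.26), LysM-Cre 0 h replicate 2 (0.26), LysM-Cre 2 h replicate 1 (0.25), LysM-Cre 2 h replicate 3 (0.26), FosKO 0 h replicate 2 (0.24), FosKO 0 h replicate 3 (0.23) or FosKO 2 h replicate 3 (0.23) was left out. For Csrnp1 the 2 h difference of 0.32 ± 0.10 (adjusted p = 0.0273, range 0.00717 to 0.260) was 0.16 under quantile normalisation and was lost without LysM-Cre 0 h replicate 1 (0.29), LysM-Cre 2 h replicate 1 (0.28), LysM-Cre 2 h replicate 2 (0.29), FosKO 0 h replicate 1 (0.26), FosKO 0 h replicate 2 (0.31), FosKO 2 h replicate 1 (0.30) or FosKO 2 h replicate 3 (0.31).
Ier3, Ier5 and Plk3 did not pass at any time in the fit without a replicate block. Their 95% confidence intervals at 1 h were -0.15 to 0.29, -0.07 to 0.15 and -0.30 to 0.33. For Ier3 the unadjusted intervals at 0.5 h (-0.25, -0.47 to -0.02, adjusted p = 0.740) and at 2 h (-0.25, -0.47 to -0.02, adjusted p = 0.137) lay below 0. With a replicate block the Ier3 difference at 2 h passed the test (limma adjusted p = 0.0203), although same-numbered libraries at 2 h correlated at only -0.029 to 0.029 between the genotypes.

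The step from 0.5 h to 1 h showed how far the transcripts that peak early declined. Of all genes tested, 26.8% changed over this step in LysM-Cre and 27.5% in FosKO-labelled libraries. In LysM-Cre libraries Ier2 fell by 1.90, whereas in FosKO-labelled libraries it fell by 1.52. In the same order Btg2 fell by 1.19 and by 0.67, and Plk2 fell by 0.79 and by 0.29. The decline was thus smaller in FosKO-labelled libraries by 0.38 ± 0.08 for Ier2 (adjusted p = 0.0166), 0.52 ± 0.08 for Btg2 (adjusted p = 0.00117) and 0.49 ± 0.05 for Plk2 (adjusted p = 1.06e-05), beside 1.06% of all genes with a difference in this step. The Ier2 difference was lost without LysM-Cre 0.5 h replicate 2 (0.36), LysM-Cre 1 h replicate 2 (0.35) or FosKO 1 h replicate 2 (0.36) and among libraries of high 18S level alone (0.39, adjusted p = 0.258, with fewer libraries), with adjusted p from 0.00414 to 0.258 over 34 alternatives, whereas the Btg2 and Plk2 differences were called in all of them.

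The other 5 genes did not pass the test for a difference in this step in the fit without a replicate block. Ier3 fell by 0.60 in LysM-Cre libraries, whereas it fell by 0.28 in FosKO-labelled libraries. The latter change was -0.20 (adjusted p = 0.0613, range 2.14e-04 to 0.0613) without FosKO 0.5 h replicate 3. The Ier3 difference in step was 0.32 ± 0.11 (adjusted p = 0.219), and it passed with a replicate block (limma adjusted p = 0.0267). Same-numbered FosKO libraries at 0.5 h and 1 h correlated at 0.33 to 0.71, whereas the LysM-Cre libraries correlated at -0.25 to 0.41. Between the genotypes at 1 h the correlations were -0.53 to -0.21, so the numbers do not pair all the libraries of this difference. Btg1 and Csrnp1 still rose, by 0.55 and 0.87 in LysM-Cre and by 0.47 and 1.13 in FosKO-labelled libraries. Ier5 changed by -0.097 (adjusted p = 0.0643) in LysM-Cre, called without FosKO 2 h replicate 2 or 3 (adjusted p = 0.0455 and 0.00821, range 5.81e-05 to 0.304), and fell by 0.14 in FosKO-labelled libraries. Quantile normalisation gave -0.21 (limma adjusted p = 5.81e-05) for the Ier5 change in LysM-Cre libraries. In FosKO-labelled libraries it gave -0.25 for the fall of Ier5 and -0.49 for that of Plk2. Plk3 changed by 0.20 (adjusted p = 0.189) and 0.37 (adjusted p = 0.0132), and the latter was 0.30 without FosKO 0.5 h replicate 1, 0.29 without FosKO 1 h replicate 1 and 0.22 among libraries of high 18S level, none of which passed (range 0.00659 to 0.204).

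From 1 h to 2 h all 8 genes fell in both genotypes, beside 52.3% of all genes that changed in LysM-Cre and 50.7% in FosKO-labelled libraries. The falls in LysM-Cre libraries ran from 0.57 for Btg1 to 2.09 for Btg2. In LysM-Cre libraries Ier2 fell by 1.31, and with the FosKO label it fell by 1.57, a difference in step of -0.27 ± 0.08 (adjusted p = 0.0314, range 0.00349 to 0.126), beside 11.6% of all genes with a difference in this step. It was lost in 10 of 34 alternatives, among them those without LysM-Cre 1 h replicate 1 (-0.26) or 2 (-0.23), LysM-Cre 2 h replicate 1 (-0.25) or 2 (-0.24), FosKO 1 h replicate 2 (-0.25) and FosKO 2 h replicate 1 (-0.24) or 2 (-0.22). The other 7 genes did not pass the test for this difference. For Ier3 it was -0.32 (95% confidence interval -0.54 to -0.10, adjusted p = 0.0598) and passed in 5 of 34 alternatives. For Plk2 it was -0.14 (adjusted p = 0.118) and passed in 1.

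Genes related to the 8 by pathway or family were counted in the same fits. Of 20 p53 target genes, 19 were tested, and 13, 14, 13 and 12 of them were higher in the libraries labelled FosKO at 0, 0.5, 1 and 2 h, with 1, 0, 1 and 2 lower, beside the shares of all genes called given above. Their median log2 differences were 0.30, 0.35, 0.30 and 0.24, and the number higher stayed between 10 and 14 under each of 9 other settings. Cdkn1a, the inhibitor of cyclin-dependent kinases, differed by 0.46 in unstimulated cells and by 0.24 after 2 h, Mdm2, the ubiquitin ligase of p53, by 0.26 and 0.43, and Ccng1 by 0.27 and 0.26. The 2 h differences were largest for Trp53inp1 (0.78) and Pmaip1 (0.66), and these 5 genes were chosen for naming after their values were seen. No p53 target differed by 1 or more.

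**Figure D4:**
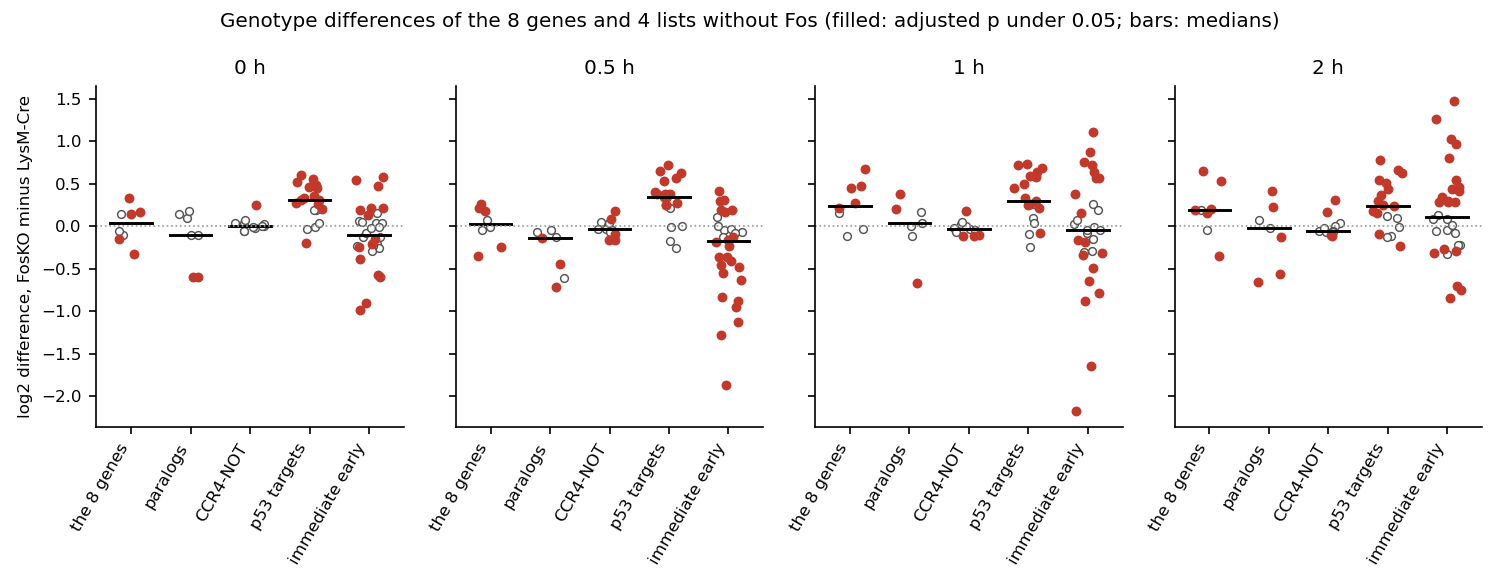
Log2 difference FosKO minus LysM-Cre (vertical axis) at 0, 0.5, 1 and 2 h for the 8 genes and for 4 lists of related genes (Fos itself left out of the drawing), with 1 point per gene, filled where the adjusted p was under 0.05, and a bar at the median. The p53 targets lie mostly above 0 in all 4 panels, and the immediate early genes have the widest range.

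Of 32 other immediate early genes 31 were tested, Fos included. At 0, 0.5, 1 and 2 h 8, 6, 10 and 15 were higher in the libraries labelled FosKO and 8, 18, 10 and 6 lower, with medians of -0.080, -0.18, -0.040 and 0.13, beside 35.4%, 40.9%, 33.9% and 44.6% of all genes called in either direction. The median at 1 h was 0.019 among libraries of high 18S level alone, with 11 higher and 6 lower. The balance depended on the scaling, since quantile normalisation gave 6, 3, 9 and 12 higher with 8, 18, 13 and 7 lower (medians -0.085, -0.28, -0.067 and 0.052). At 0.5 h Dusp5, a phosphatase of ERK, was lower by a log2 difference of -1.86, Nr4a1, an orphan nuclear receptor, by -1.27 and Fosl1, a Fos family member, by -1.12. At 1 h Dusp5 (-2.17) and Fosl1 (-1.64) were lower and Ppp1r15a, a phosphatase regulator of the stress response, was higher by 1.11. At 2 h Sgk1, a serine/threonine kinase (1.47), Klf4, a zinc finger factor (1.27), and Ppp1r15a (1.03) were higher. None of the 8 genes had a genotype difference of this size.

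Among 10 relatives of the 8 genes, 7 were tested. Plk1, the mitotic polo-like kinase, had lower values with the FosKO label at all 4 times (-0.60, -0.71, -0.67 and -0.66), while its relative Plk2 was higher. Ier5l, a relative of Ier5, was lower at 0 h (-0.60, adjusted p = 0.00356) and 0.5 h (-0.45, adjusted p = 0.0212), when Ier5 was higher. These relatives were chosen for naming after their values were seen. Tob1, a BTG family member, was higher at 1 h (0.20) and 2 h (0.42), and Csrnp2 was higher at 1 h (0.38) and lower at 2 h (-0.56). In all, 0, 0, 2 and 2 relatives were higher and 2, 3, 1 and 3 lower at the 4 times, which is 2, 3, 3 and 5 of 7 called and, up to 1 h, near the share of all genes called (35.4%, 40.9%, 33.9% and 44.6%). Among libraries of high 18S level alone, with 1 LysM-Cre library at 1 h, the 1 h differences of Tob1 (0.16, adjusted p = 0.187) and Csrnp2 (0.25, adjusted p = 0.192) kept their sign but did not pass the test, and Tob1 was lower at 0.5 h (-0.18, adjusted p = 0.0448, against -0.12 and 0.0902 with all libraries). Of the 11 CCR4-NOT subunits, the complex bound by Btg1 and Btg2, 1, 2, 1 and 2 were higher and 0, 3, 3 and 2 lower, with medians between -0.054 and 0.0092, and so 1, 5, 4 and 4 of 11 were called beside the same shares of all genes. Quantile normalisation gave 1 higher at each time with 2, 5, 3 and 3 lower. Among libraries of high 18S level, with 1 LysM-Cre library at 1 h, 0 passed at that time (median -0.048 against -0.032 with all libraries).

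Over the 24 libraries, the genes with the most similar log2 profile were found by Pearson correlation, as a description, since the libraries share their groups. The choice depends on the measure: by Spearman correlation the first gene was the same for Ier2 alone, and the 3 genes nearest to Btg2 were Rusc2, Tgds and Egr1. Ier2 was most like Egr1 (r = 0.98), Gm17024 (0.98) and Dusp1 (0.95), Btg2 like Dusp1 (0.96), Egr1 (0.96) and Egr2 (0.95), and Plk2 like Egr1 (0.93), Gm17024 (0.91) and Gdf15 (0.89). Csrnp1 was most like Tnfaip3, Nfkbiz and Tnf (0.99 each), and Btg1 like Tnfsf9 (0.97), Zfp719 (0.96) and Nfkbid (0.96). Ier3 was most like Zfp36 (0.97), Junb (0.96) and Dusp1 (0.94), Ier5 like Tgif1 (0.95), Gdf15 (0.94) and Slc25a25 (0.93), and Plk3 like Nuak2 (0.96), Dusp8 (0.96) and Tgif1 (0.95). Egr1, the first of the genes like Ier2 and Plk2 by Pearson correlation, differed between genotypes by -0.21 (adjusted p = 0.109) at 0 h, -0.066 (adjusted p = 0.644) at 0.5 h, 0.87 (adjusted p = 7.92e-07) at 1 h and 0.97 (adjusted p = 1.10e-07) at 2 h. Dusp1, the first like Btg2 by the same measure, was instead lower at 0.5 h (-0.36, adjusted p = 1.78e-07), 1 h (-0.31, adjusted p = 1.83e-06) and 2 h (-0.27, adjusted p = 6.27e-06), and Gm17024 did not pass the test at any time. Among the 28 pairs of the 8 genes r ran from 0.42 (Btg1 and Plk2) to 0.97 (Ier2 and Btg2), and Btg1 and Csrnp1 reached 0.91.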

How the data were processed

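RNA-seq of 24 BMDM libraries was analysed from one table of normalised log2 values deposited by the authors, which resembles a regularised log scale and so may shrink differences of low genes. Per the methods and processing notes, strand-specific single-end reads were aligned with STAR 2.5.2a, quantified with RSEM 1.2.31 on GRCm38 and normalised by the authors with DESeq2 (1.16.1 in the processing notes). The methods give a typical yield, but the depth of single libraries is unknown.

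Genes with a linear value (2 to the power of the log2 value) of at least 5 in 3 libraries were tested (13901 of 24273) with limma 3.58.1 in R 4.3.3, with 1 mean per group, a spread shared by all 24 libraries, a variance trend and Benjamini-Hochberg adjustment (threshold 0.05). On simulated data for FosKO against LysM-Cre at 1 h (13901 genes), 56% of genes changed by 0.25, 82% by 0.5, 92% by 1 and 98% by 2 (log2) were recovered, with 4 false among 168 calls.

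The 8 genes and the lists were chosen with earlier results of these data known. Named were all 8, the 3 most correlated tested genes of each, and at most 4 called members of a list that differed by 1 or more. Genes named below that size, among the p53 targets and the relatives, were chosen after their values were seen. The differences in step between genotypes were added after the values were seen. Replicate numbers did not pair the libraries in general: correlations of same-numbered deviations ran from -0.53 to 0.31 between genotypes and, of the 14 pairs of groups checked, were all over 0.1 for FosKO at 0.5 h against 0 h (0.13 to 0.27) and at 1 h against 0.5 h (0.33 to 0.71), where a replicate block changed no call of the 8 genes. The other alternatives were quantile normalisation, median centring, 1 added before the log, other filters, no variance trend, an 18S term, high 18S libraries alone, only the groups compared, and each library left out.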

Additional observations from a re-analysis of the deposited data

Results flagged for a closer look

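The LPS change differed between the genotypes by the test of the difference for 5 of the 8 genes, 3 of them at 1 h (beside 1.22% of all genes) and 5 at 2 h (beside 15.0%), and these results are repeated here as values (log2 change in FosKO-labelled minus log2 change in LysM-Cre libraries, limma). At 1 h the difference was 0.60 for Ier2, 0.34 for Btg2 and 0.53 for Plk2. At 2 h it was 0.34 for Ier2, 0.29 for Btg1, 0.27 for Btg2, 0.32 for Csrnp1 and 0.39 for Plk2. For Btg1 the level itself differed between the genotypes by -0.33 at 0 h and by -0.041 at 2 h (limma adjusted p = 0.506 at 2 h). The Btg2 difference at 1 h did not pass in 23 of 34 alternatives, and those of Btg2 and Csrnp1 at 2 h were each lost in 7 of the 24 fits that left out 1 library. Under quantile normalisation the Csrnp1 difference at 2 h was 0.16 and did not pass the test (adjusted p = 0.260). The direction of each is given by the labels. Fos was higher and not lower under the FosKO label at 0, 1 and 2 h, in values that do not separate an intact from a recombined transcript. Its rise at 0.5 h was seen in LysM-Cre libraries (2.41) and did not pass the test in FosKO-labelled ones (0.15). Fosl1 was lower under the FosKO label at all 4 times (-0.90, -1.12, -1.64 and -0.85). Groups of 3 libraries are below the size at which single samples were tested as outliers, and the effect of leaving out each library is given with the processing alternatives.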

How the results depend on the processing

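Of 152 values for the 8 genes (19 comparisons), the number that changed their side of the threshold or their sign was 13 under quantile normalisation, 6 with a replicate block, 6 in fits of only the groups compared, 4 with high 18S libraries alone, 3 without a filter, 2 without a variance trend, 1 with an 18S term, 1 with the stricter filter (at least 50 in 3 libraries) and 0 with median centring or with 1 added before the log. Leaving out each library in turn changed 71 of 3648 values. The Plk2 change at 2 h in FosKO-labelled libraries turned from 0.14 to -0.32 under quantile normalisation. The count of genes with a difference in response at 0.5 h was 1 (Btg1, 0.27, adjusted p = 0.0401) in place of 0 under quantile normalisation, and at 2 h it ran from 3 to 5 when a library was left out. For the difference in step from 1 h to 2 h the count of 1 (Ier2, -0.27) became 0 without a filter (-0.27), with high 18S libraries alone (-0.30) and in fits of only the groups compared (-0.27), 2 with the replicate block, and 0 to 3 when a library was left out. With the block Ier2 at 0 h was lost (-0.15, adjusted p = 0.0522), and Btg1 at 1 h (-0.12, adjusted p = 0.0333), the Ier5 step from 0.5 h to 1 h in LysM-Cre libraries (-0.097, adjusted p = 0.0440) and, for Ier3, the difference in response at 2 h (-0.25, adjusted p = 0.0203) and both differences in step (0.32 and -0.32, adjusted p = 0.0267 and 0.00500) were gained, and no other call of the 8 genes changed. No scaling moved the median of all genes by over 0.1. The cause of these changes was not tested. Leave-one-out groups of 2 libraries shared the spread of all groups. The precision is limited by 3 libraries a group, and the depth of single libraries is unknown.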
